A study of Mus musculus and Rattus norvegicus with 28 samples.

Results

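The genes described here encode 10 components of the basement membrane: the laminin alpha chains Lama2, Lama4 and Lama5, the beta chains Lamb1 and Lamb2, the gamma chain Lamc1, the nidogens Nid1 and Nid2, and the heparan sulfate proteoglycans Agrn (agrin) and Hspg2 (perlecan). They were taken by gene symbol from the transcript files, and all 10 were among the 55450 genes of the mouse files. In the rat files 9 of the 10 were found by symbol among 32623 genes, and Hspg2 was not analysed there. The mouse libraries came from left ventricular cardiomyocytes of wild-type C57BL/6 animals of both sexes at embryonic day 18.5 (E18.5) and postnatal days 1, 3 and 7 (P1, P3, P7), with 2 RNA-seq and 2 ATAC-seq libraries per time point. The rat libraries came from cultured left ventricular cardiomyocytes of P1 Sprague Dawley rats of both sexes. One day after plating, the cultures received 100 nM trichostatin A (TSA), an inhibitor of histone deacetylases, or its solvent DMSO, with 3 RNA-seq libraries per treatment. The cells had been released with enzymes and separated by preplating, a step that relies on non-muscle cells sticking to plastic first. No labels tied the replicates to separate animals, litters or cultures, so the p-values measure only the spread between these libraries.

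Basement membranes are thin sheets of matrix that wrap each cardiomyocyte and underlie the endothelium of its capillaries. A laminin is a trimer of 1 alpha, 1 beta and 1 gamma chain, secreted as a unit, and polymerises at the cell surface, where it is held by integrins and dystroglycan. Nidogens and perlecan link the laminin network to type IV collagen, and agrin binds both laminin and dystroglycan. The alpha 2 chain is the classical muscle laminin, whose loss causes muscular dystrophy, while alpha 4 and alpha 5 are the chains of vascular basement membranes.

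The libraries did not hold the same mixture of RNA at each age. Expression is given as FPKM, fragments scaled to transcript length and to the aligned reads of the library, summed over the transcripts of a gene. A gene was called when limma's adjusted p was under 0.05 and its log2 fold change of FPKM + 1 exceeded 1 in size, among 13979 mouse and 13625 rat genes with enough signal to test. The summed FPKM of 10 cardiomyocyte markers was 26900 to 34460 (E18.5), 12340 to 20320 (P1), 7339 to 8341 (P3) and 912.3 to 2096 (P7), and 10 of 10 were called lower at P7 than at E18.5. The summed FPKM of 8 fibroblast markers was 432.5 to 441.7 (E18.5), 1144 to 1378 (P1), 1542 to 1545 (P3) and 2907 to 3628 (P7), and 8 of 8 were called higher at P7. Smooth muscle and pericyte markers summed to 413 to 535 at E18.5 and 1655 to 1861 at P7 (4 of 8 called higher, 2 lower), while endothelial markers summed to 215 to 388 and 333 to 388 (1 higher, 1 lower of 8). Macrophage (1 higher, 1 lower of 6) and epicardial markers (2 of 7 higher) also summed to more at P7, 6 of 6 erythroid markers were called lower (29040 to 35390 summed FPKM at E18.5, 11.04 to 11.99 at P7), and none of 4 Schwann cell markers was abundant enough to test. No marker of these classes was under 0.1 FPKM in all libraries of an age, so defining markers of non-muscle cells were present in cells labelled as cardiomyocytes at each age. The part of these shifts in the results on the 10 genes was not tested, and in bulk RNA fewer cells of a type cannot be told apart from less RNA per cell.

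From E18.5 to P7, the genes whose mouse RNA moved most were Nid1, Lamb1 and Lamb2, and Agrn had the promoter densest in GC boxes. Their promoter sequences are shown first, as RefSeq gives them on GRCm38.p6, each cut to the bases that lie outside annotated exons. Capitals mark GC boxes (GGGCGG on either strand), a binding motif of Sp1-type factors.

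Nid1, chr13:13437352-13437550, plus strand: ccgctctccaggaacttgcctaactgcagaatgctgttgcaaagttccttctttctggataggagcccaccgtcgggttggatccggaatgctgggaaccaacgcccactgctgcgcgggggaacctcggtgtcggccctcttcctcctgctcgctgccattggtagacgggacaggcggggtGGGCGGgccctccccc
Lamb1, chr12:31265163-31265233, plus strand: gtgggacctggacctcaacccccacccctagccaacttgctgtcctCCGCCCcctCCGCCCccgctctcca
Lamb2, chr9:108479612-108479735, plus strand: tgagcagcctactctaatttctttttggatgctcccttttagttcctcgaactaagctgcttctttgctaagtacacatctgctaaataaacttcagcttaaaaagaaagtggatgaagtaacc
Agrn, chr4:156197534-156197738, minus strand: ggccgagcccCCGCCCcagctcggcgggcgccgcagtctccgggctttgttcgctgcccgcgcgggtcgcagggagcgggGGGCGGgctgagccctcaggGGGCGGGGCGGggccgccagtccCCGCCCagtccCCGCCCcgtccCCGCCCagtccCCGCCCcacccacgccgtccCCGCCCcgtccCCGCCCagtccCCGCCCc

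RefSeq promoters of 300 bases (250 before the start and 50 from it on) were matched for 7 of the 10 genes, with 8 starts in all, and for Lama4, Lamc1 and Nid2 none was used here. GC boxes were present in 7 of the 8, against 35.7% of all 32851 mouse promoters. The promoter without one was that of Lamb2, which also had the lowest GC content, 44.0%. At the major start of Agrn, 12 GC boxes and a GC content of 83.3% were counted, 2 of the boxes overlapping. The other promoters held 50.3% (Lama2) to 72.7% GC (Lama5), with a median of 64.2% for the 8 and 52.7% for all promoters. The AP1 motif TGACTCA was on neither strand of the 8 windows, and 5.2% of all promoters contain it. The TATA box (TATAAA) and the MEF2 consensus were absent as well, and 13.6% and 3.19% of all promoters contain them.

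Next come 2 windows in which the ATAC-seq peaks of a gene differed between ages. The first comes from the Lama2 start region. Of the bases shared by at least 3 of its 4 peaks, only a stretch outside annotated exons and upstream of the start of the major transcript is printed, and the rest, at and around the starts, was left out. The second is the part of a Lamb1 intron shared by all 3 peaks there. Neither printed stretch holds an AP1 motif, GC box, TATA box or MEF2 consensus, while the bases left out at Lama2 include the GC box counted above in its promoter. Of windows of the same length centred in the 95108 peaks of P3 replicate 1 that were searched, 17.3% (181 bases) and 15.9% (158 bases) contain an AP1 motif.

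Lama2, chr10:27617192-27617372, minus strand: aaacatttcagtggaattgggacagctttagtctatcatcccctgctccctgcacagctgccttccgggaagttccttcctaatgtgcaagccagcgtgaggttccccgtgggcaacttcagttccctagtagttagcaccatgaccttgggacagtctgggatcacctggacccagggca
Lamb1, chr12:31275475-31275632, plus strand: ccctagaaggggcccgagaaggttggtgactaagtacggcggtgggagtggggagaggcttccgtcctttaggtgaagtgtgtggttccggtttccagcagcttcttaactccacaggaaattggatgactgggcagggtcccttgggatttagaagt

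All 10 genes were expressed at every mouse age. At E18.5 the highest mean was that of Lamc1 at 59.7 ± 18.4 FPKM (SD, n = 2) and the lowest that of Lama2 at 6.48 ± 1.13. From Lamc1 down to Nid2 each gene of the E18.5 order overlapped its neighbour, so that order was not resolved except for Lama5 and Lama2 at the bottom. At P7 the order was Nid1 (123 ± 10.6), Lamb1 (90.2 ± 7.98), Lamc1 (70.5 ± 1.74), Hspg2 (60.5 ± 0.52), Lama4 (53.3 ± 9.37), Nid2 (31.5 ± 0.463), Agrn (30.2 ± 1.73), Lamb2 (21.0 ± 0.797), Lama5 (11.6 ± 1.09) and Lama2 (6.38 ± 1.34). Of these P7 neighbours, Nid2 and Agrn overlapped. The 10 genes together summed to 288 to 389 FPKM (E18.5), 374 to 399 (P1), 397 to 497 (P3) and 480 to 517 (P7).

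**Figure D1:**
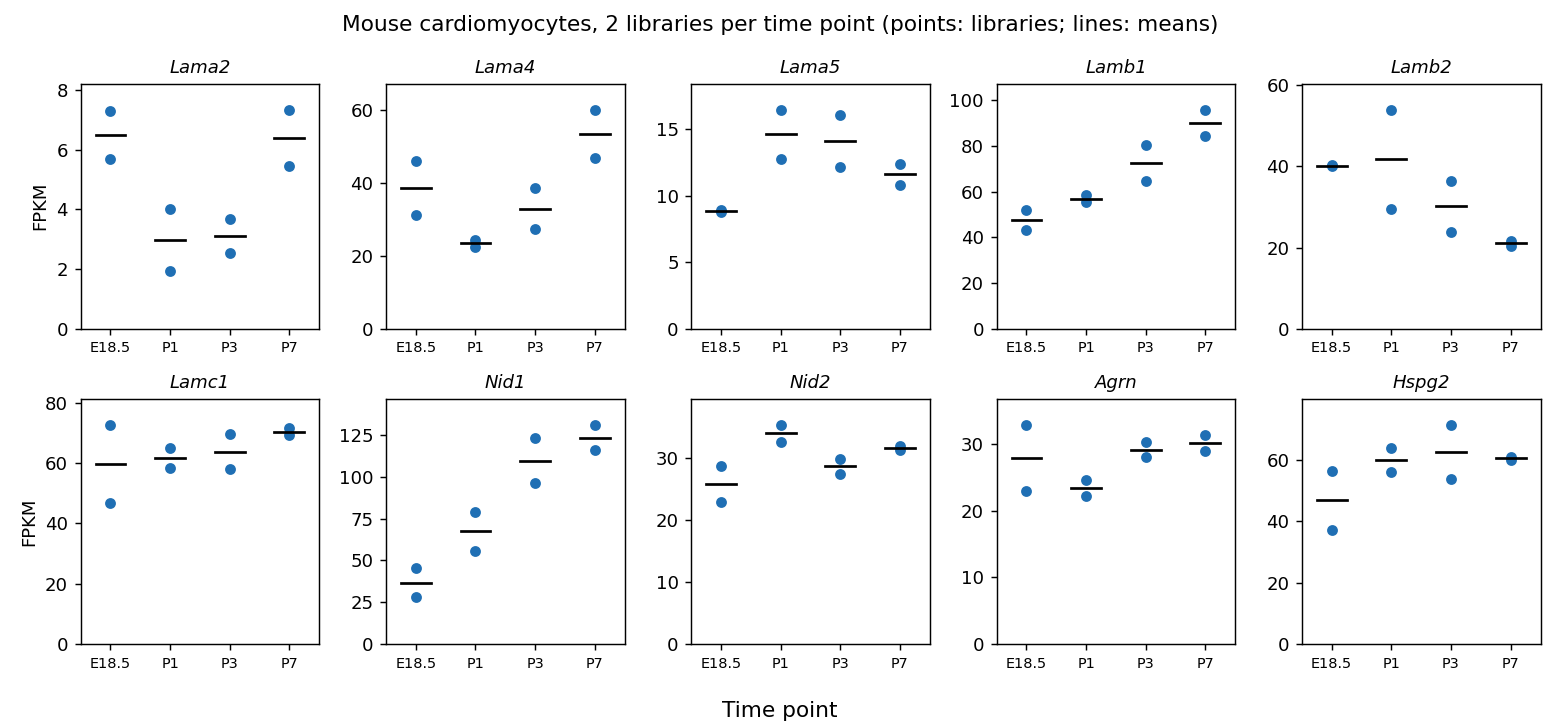
FPKM (linear axis from 0, its own scale for each gene) of the 10 genes in the 8 mouse RNA-seq libraries by time point. Points are libraries and lines are means of 2; Nid1 and Lamb1 are highest at P7, Lamb2 is lowest there, and Lama4 is lowest at P1.

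The basement membrane genes did not move as a block after birth. Against E18.5, 1 of 10 was called higher at P3 and at P7 (Nid1 at both) and none at P1, beside 13%, 15.4% and 10.1% of all genes tested. No member was called lower at P1, P3 or P7, where 6.06%, 8.88% and 12.3% of all genes were. By the adjusted p alone, 4 genes passed at P1 (2 higher, 2 lower), 4 at P3 (3 higher, 1 lower) and 3 at P7 (2 higher, 1 lower), against 41.3%, 48.9% and 55.2% of all genes. The libraries of P7 and E18.5 did not overlap for 7 of the 10 genes, close to the 78.3% of all genes. The median log2 fold change of the 10 was 0.17, 0.14 and 0.32 at P1, P3 and P7, where that of all genes tested was 0.15, 0.16 and 0.15. The 3 comparisons share the E18.5 libraries. Scaling by size factors (medians of ratios) moved the median of all genes to -0.01, -0.02 and -0.01, and TPM moved it to 0.38, 0.41 and 0.40, so small differences depend on the scaling. The median of the 10 genes also turned sign, to -0.03, -0.08 and 0.15 with size factors, against 0.41, 0.39 and 0.59 with TPM. It was 0.40, 0.39 and 0.52 without E18.5 replicate 1 and 0.04, -0.09 and 0.13 without E18.5 replicate 2. At P7, 2155 genes were called higher and 1715 lower as deposited, 1727 and 2072 with size factors, and 3361 and 1576 with TPM. For P1 the pairs were 1411 higher with 847 lower, 1012 with 1201, and 2568 with 752. For P3 the pairs were 1814 with 1241, 1367 with 1626, and 3068 with 1056.

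Nid1, encoding nidogen-1, rose most. Its FPKM was 45.3 and 27.9 (E18.5), 78.9 and 55.7 (P1), 96.1 and 123 (P3), and 116 and 131 (P7). Each postnatal library was above both E18.5 libraries, and the P3 and P7 libraries overlapped each other. The log2 fold change against E18.5 was 0.88 at P1 (SE 0.25, adjusted p = 0.0247), 1.58 at P3 (adjusted p = 0.00147) and 1.76 at P7 (adjusted p = 0.000623), the last 2 past both limits in limma. The P3 and P7 calls held in all 17 settings tried, with log2 fold changes of 1.25 to 1.92 and 1.42 to 2.1. At P1 the fold limit was also passed with TPM (1.13) and without E18.5 replicate 1 (1.22) or P1 replicate 2 (1.13), and in 4 of 16 alternatives its adjusted p at P1 was not under 0.05 (up to 0.141). Nid2, encoding its paralog nidogen-2, stayed in a narrow band of 22.8 to 35.2 FPKM over the 8 libraries. Its lowest library was E18.5 replicate 2, and its log2 fold change at P7 was 0.29 (SE 0.14, adjusted p = 0.115).

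Lamb1, encoding the beta 1 chain, was higher at P7, short of the fold limit. It measured 52.1 and 43.1 FPKM (E18.5), 58.7 and 55.4 (P1), 64.9 and 80.3 (P3), and 84.6 and 95.9 (P7). The libraries of the 4 ages did not overlap. Against E18.5 it differed by 0.26 on the log2 scale at P1 (adjusted p = 0.201), 0.60 at P3 (adjusted p = 0.0126) and 0.91 at P7 (SE 0.15, adjusted p = 0.00135). It was called at P7 with TPM (1.2) and without E18.5 replicate 1 (1.05) or P7 replicate 1 (1.00). At P3 its adjusted p was not under 0.05 in 3 of 16 alternatives (up to 0.0966).

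Lamb2, encoding the beta 2 chain typical of mature synaptic and muscle laminins, was lower at P7. Its FPKM was 40.4 and 40.0 (E18.5), 29.5 and 54.0 (P1), 23.8 and 36.5 (P3), and 21.6 and 20.5 (P7). The P1 libraries lay on both sides of the E18.5 pair, and both P7 libraries were below all others. The log2 fold change at P7 was -0.90 (SE 0.28, adjusted p = 0.0253), which passed the fold limit with median-of-ratios size factors (-1.08). Without a filter, with TPM and without either library of E18.5 or P7, 6 of 16 alternatives, its adjusted p was not under 0.05 (0.0706 to 0.093). Lamc1, the gamma chain common to the laminins these genes can form, differed little, from 46.7 to 72.7 FPKM with both extremes at E18.5. Its log2 fold change at P7 was 0.27 (adjusted p = 0.286).

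The alpha chains followed courses of their own. Lama4 measured 45.9 and 31.2 FPKM (E18.5), 22.3 and 24.4 (P1), 27.3 and 38.5 (P3), and 46.7 and 59.9 (P7). It was lowest in both P1 libraries and highest in both P7 libraries. The log2 fold change against E18.5 was -0.68 at P1 (adjusted p = 0.0460) and 0.47 at P7 (adjusted p = 0.115), and from P1 to P7 Lama4 rose by 1.15 on the log2 scale (SE 0.23, adjusted p = 0.0110). That call was lost without P7 replicate 2 (0.97, adjusted p = 0.0865) and without a filter on low values (adjusted p = 0.0608). Its adjusted p at P1 against E18.5 was not under 0.05 in 8 of 16 alternatives (0.0508 to 0.223), the replicate block among them.

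Lama2 was the least abundant of the 10 at each age. Its libraries held 5.68 and 7.28 FPKM (E18.5), 1.95 and 4.0 (P1), 2.53 and 3.67 (P3), and 5.43 and 7.33 (P7). The P1 and P3 libraries were all below those of E18.5 and P7, which overlapped. Against E18.5 the log2 fold change was -0.95 at P1 (SE 0.28, adjusted p = 0.0284), -0.87 at P3 (adjusted p = 0.0340) and -0.02 at P7 (adjusted p = 0.951; 0.22 with TPM). At so low a level the pseudocount counts, and with 0.1 in place of 1 Lama2 was called lower at P1 (-1.17) and P3 (-1.05). It was also called at both ages with size factors or limma-voom, and without the second replicate of P1 or of P3 at that age (-1.33 and -1.07). In 5 of 15 alternatives at either age the adjusted p was not under 0.05 (up to 0.16 at P1 and 0.177 at P3).

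Lama5 measured 8.94 and 8.79 FPKM (E18.5), 12.7 and 16.4 (P1), 12.1 and 16.1 (P3), and 12.4 and 10.8 (P7). All 6 postnatal libraries were above both E18.5 libraries. It differed from E18.5 by 0.65 on the log2 scale at P1 (adjusted p = 0.0228), 0.60 at P3 (adjusted p = 0.0262) and 0.35 at P7 (adjusted p = 0.138), short of the fold limit at each age. It was not called in any of the 17 settings, and in 5 of 16 alternatives at P1 and at P3 the adjusted p was not under 0.05 (up to 0.122 and 0.177).

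The proteoglycans did not pass the test in any mouse comparison. Agrn ranged from 22.2 FPKM (P1 replicate 1) to 32.9 (E18.5 replicate 1), and its 2 E18.5 libraries spanned all the others but that P1 library. Its log2 fold change at P7 was 0.13 (adjusted p = 0.549), and -0.05 with size factors. Hspg2 ranged from 37.2 FPKM (E18.5 replicate 2) to 71.4 (P3 replicate 2), with a log2 fold change at P7 of 0.39 (adjusted p = 0.146). For Agrn, the transcript that starts at the upstream promoter printed above carried 78.2% of the summed FPKM, and shorter transcripts carried the rest.

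Between the postnatal ages, Lama4 was the only member called, 1 of 10 higher from P1 to P7 where 3.45% of all genes were. Lamb1 (0.65, adjusted p = 0.0214) and Nid1 (0.88, adjusted p = 0.0457) passed the adjusted p in that comparison, which 18.2% of all genes did. Both lost that pass in some of 16 alternatives, Lamb1 in 5 (up to 0.153) and Nid1 in 8 (up to 0.245). None of the 10 was called lower there, beside 5.46% of all genes. The mean of Lamb2 was 41.7 FPKM at P1 and 21.0 at P7, and its log2 fold change ranged from -1.32 to -0.47 over 17 settings. Means of Lama5 (14.6 and 11.6) and Nid2 (33.9 and 31.5) were also lower at P7, while 7 of the 10 genes had a log2 fold change above 0. From P1 to P3 no member was called, nor were more than 0.0143% of all genes higher or 0% lower. From P3 to P7 none was called either, with 1.35% of all genes higher and 2.2% lower.

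Ratios between related chains within a library do not depend on how that library was scaled. The ratio of Lamb1 to Lamb2 was 1.29 and 1.08 (E18.5), 1.99 and 1.03 (P1), 2.72 and 2.20 (P3), and 3.91 and 4.68 (P7). The P3 and P7 libraries were above all those of E18.5 and P1. In the exact permutation test over the 4 time points, p was 0.0381 and 0.0635 after adjustment over the 4 ratios tested, and 0.00952 was the smallest p the design allows. The ratio of Nid1 to Nid2 was 1.58 and 1.22 (E18.5), 2.42 and 1.58 (P1), 3.23 and 4.48 (P3), and 3.64 and 4.19 (P7) (exact permutation p = 0.0476, adjusted p = 0.0635). Here too the P3 and P7 libraries lay above the rest, and they overlapped each other.

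Among the alpha chains, Lama4 gave 54.4% to 76.8% of the summed alpha chain FPKM in the 8 mouse libraries. The ratio of Lama5 to Lama4 was 0.195 and 0.282 (E18.5), 0.571 and 0.674 (P1), 0.443 and 0.418 (P3), and 0.265 and 0.181 (P7) (exact permutation p = 0.0381, adjusted p = 0.0635). It was highest in both P1 libraries, and the P7 and E18.5 libraries overlapped. The ratio of Lama2 to Lama4 ranged from 0.0872 to 0.233, and the exact permutation test gave p = 0.371 (adjusted p = 0.371).

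**Figure D2:**
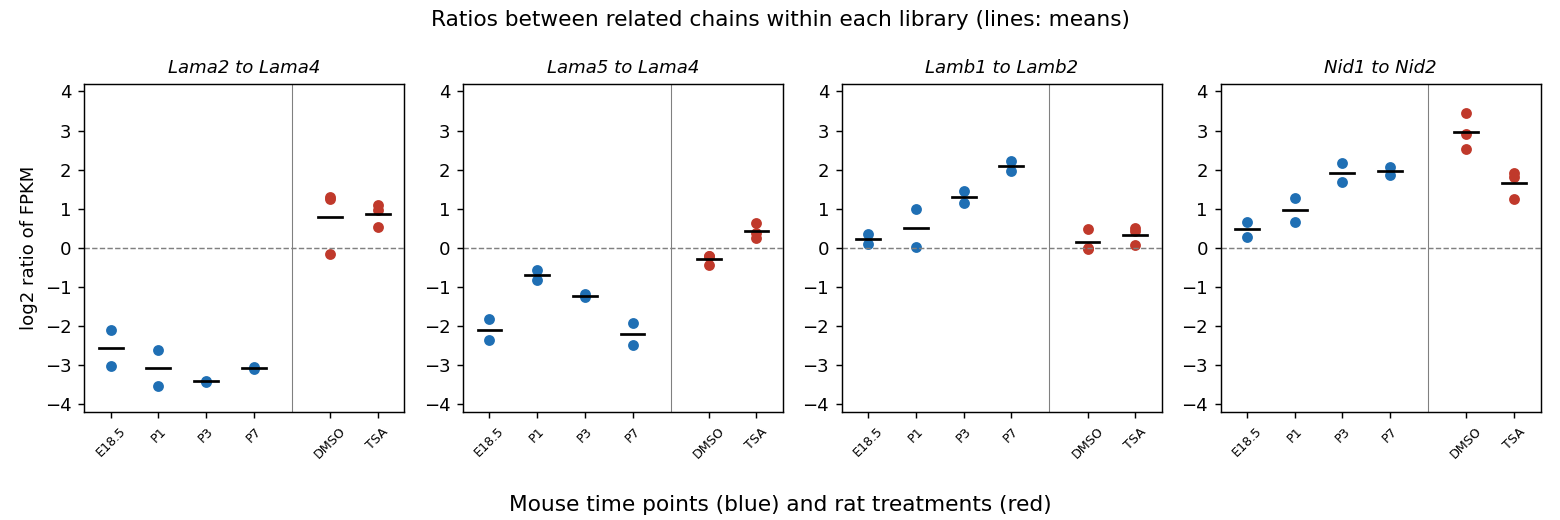
Log2 of the FPKM ratio between related chains in each library, for the 4 mouse time points (blue, 2 libraries each) and the 2 rat treatments (red, 3 libraries each), with lines at the means. Mouse and rat values were normalized separately and stand side by side only; Lamb1 to Lamb2 and Nid1 to Nid2 are highest at P3 and P7 in mouse, and Nid1 to Nid2 is lower with TSA in rat.

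In rat cultures, TSA was compared with DMSO on the same genes. Rat replicates 1 and 2 of each treatment were alike and replicate 3 stood apart: in DMSO replicate 3 smooth muscle markers summed to 2191 FPKM (874 to 952 in the other two) and macrophage markers to 474.5 (979 to 997). In TSA replicate 3 cardiomyocyte markers summed to 24100 (11610 to 13150 in the other two) and fibroblast markers to 3565 (5658 to 5965). Of all markers, 1 of 8 smooth muscle and pericyte and 1 of 7 epicardial markers were called higher and none was called lower. The 7 endothelial markers found by symbol summed to 17.6 to 28.5 FPKM over the 6 libraries. The part of these differences in the rat results was not tested.

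With TSA, 1 of 9 basement membrane genes was called higher (Nid2) and none lower, where 1.81% and 0.316% of all genes were. By the adjusted p alone 3 of 9 passed, all higher (Nid2, Agrn and Lama5), against 3.78% of all genes in either direction. For the same 3 genes the libraries of the treatments did not overlap, as was so for 27.2% of all genes. The median log2 fold change of the 9 was 0.13, and that of all genes tested 0.03.

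**Figure D3:**
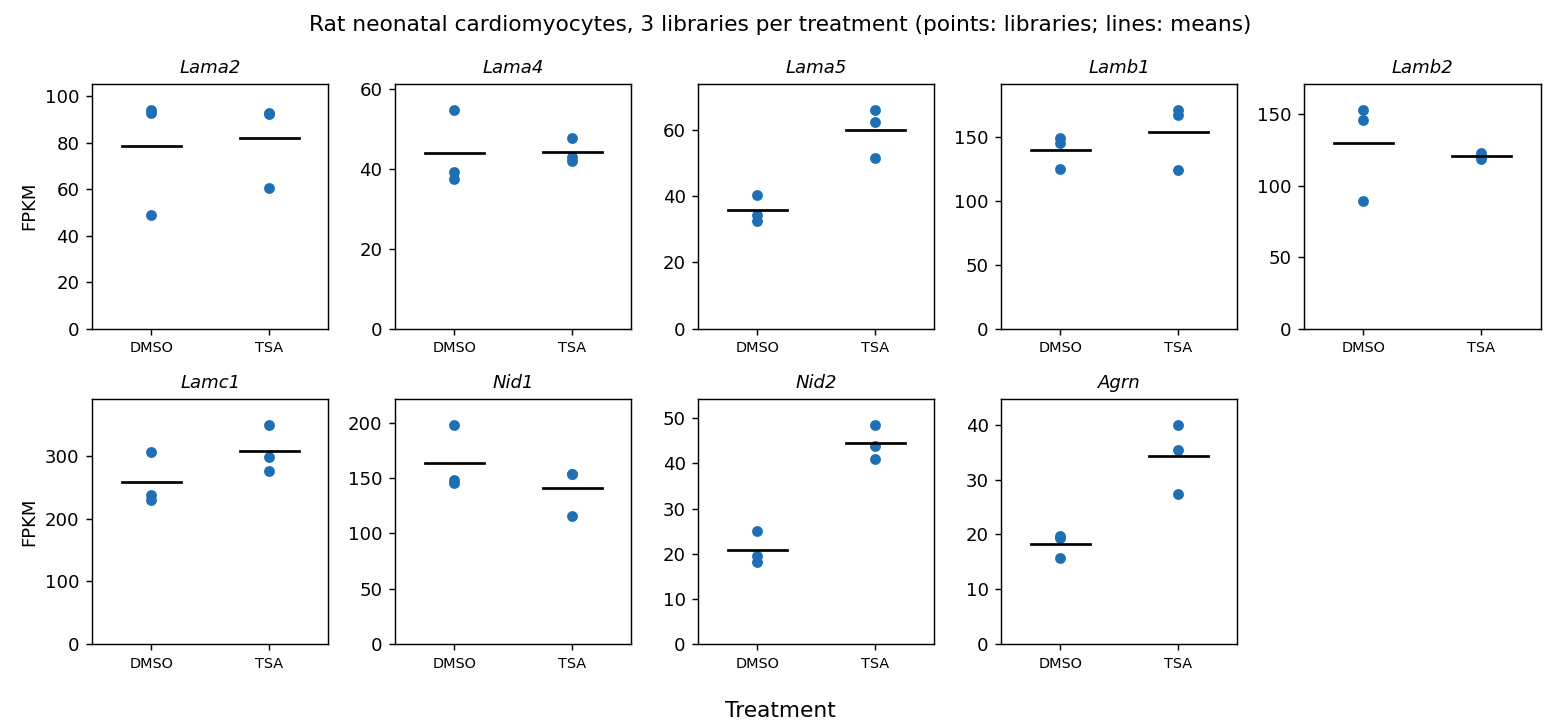
FPKM (linear axis from 0, its own scale for each gene) of the 9 genes found in the rat files, in 3 DMSO and 3 TSA libraries. Points are libraries and lines are means; the treatments do not overlap for Lama5, Nid2 and Agrn and overlap for the other 6 genes.

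Nid2 rose with TSA. It measured 25.1, 19.5 and 18.1 FPKM with DMSO and 40.9, 43.9 and 48.5 with TSA, and each TSA library was above all DMSO libraries. It was higher with TSA by 1.06 on the log2 scale (SE 0.14, adjusted p = 0.0155), just past the fold limit. Leaving out DMSO replicate 3 brought it to 0.97, leaving out DMSO replicate 2, TSA replicate 1 or TSA replicate 2 raised the adjusted p to 0.0662, 0.0616 and 0.0924, and without replicate 3 of both treatments, an alternative chosen after seeing the data, it was 0.91 (adjusted p = 0.0108). Each ended the call by one of its 2 limits, and the direction held. Nid1 measured 145, 148 and 198 FPKM with DMSO and 154, 154 and 116 with TSA. Replicate 3 was the highest DMSO and the lowest TSA library, and the log2 fold change was -0.21 (adjusted p = 0.553), or 0.07 without replicate 3 of both (adjusted p = 0.38).

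Agrn and Lama5 were higher with TSA, short of the fold limit. Agrn measured 19.7, 19.3 and 15.6 FPKM with DMSO and 35.5, 39.9 and 27.3 with TSA, with no overlap. Its log2 fold change was 0.87 (SE 0.16, adjusted p = 0.0399), and without TSA replicate 3 it was 1.01 and called (adjusted p = 0.0303). In 8 of 14 alternatives, among them TPM, both other filters and each of the other 5 libraries left out, its adjusted p was not under 0.05 (0.0529 to 0.155). Of the 2 rat transcripts of Agrn, one was listed at 0 in DMSO replicates 2 and 3 and at 16.7 in DMSO replicate 1, so the split between them was not stable among controls and only the sum is compared. Lama5 measured 32.5, 34.1 and 40.4 FPKM with DMSO and 51.5, 62.3 and 65.9 with TSA, again with no overlap. Its log2 fold change was 0.73 (SE 0.13, adjusted p = 0.0361), and in 9 of 14 alternatives the adjusted p was not under 0.05 (0.0522 to 0.159).

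The other 6 rat genes did not pass. Lamc1 was the most abundant with DMSO, at 230.5, 238 and 307 FPKM, and measured 277, 299 and 349.6 with TSA, a log2 fold change of 0.26 (adjusted p = 0.403). Lamb1 (145, 149 and 125 with DMSO, 171, 167 and 124 with TSA) and Lamb2 (146, 153 and 89.3 with DMSO, 121, 123 and 119 with TSA) had log2 fold changes of 0.13 and -0.06. Lama2 was lower in replicate 3 of both treatments, with 92.7, 94.1 and 48.9 FPKM under DMSO and 92.4, 92.9 and 60.6 under TSA. Lama4 measured 37.5, 39.3 and 54.8 with DMSO and 42.9, 47.8 and 42.1 with TSA. Without replicate 3 of both treatments, Lamc1 (0.30, adjusted p = 0.0285) and Lamb2 (-0.29, adjusted p = 0.0207) passed the adjusted p but not the fold limit.

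**Figure D4:**
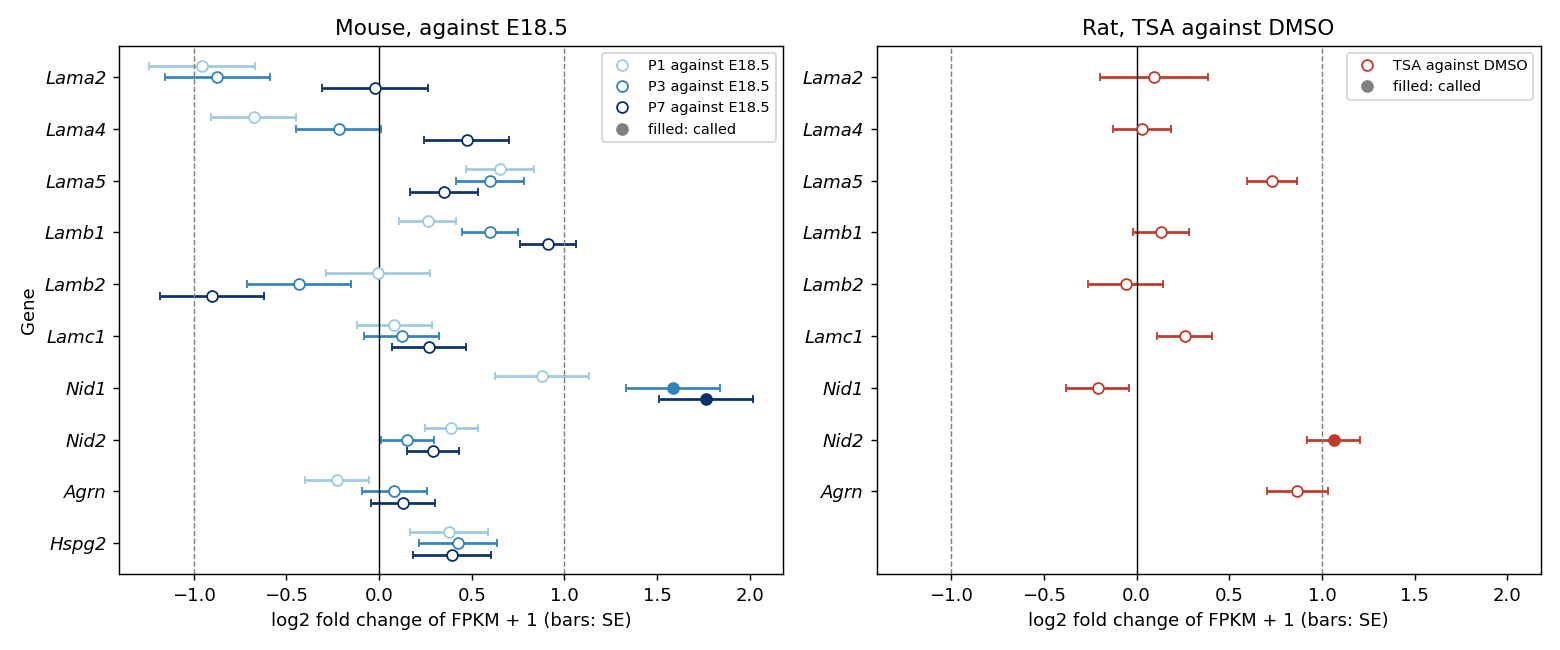
Log2 fold change of FPKM + 1 with its SE, for the 10 mouse genes at P1, P3 and P7 against E18.5 (left, 2 libraries per time point) and the 9 rat genes for TSA against DMSO (right, 3 libraries per treatment). Filled points are called and dashed lines mark the fold limit of 1; Nid1 at P3 and P7 and rat Nid2 are the filled points.

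The same 4 ratios were taken in the rat libraries. That of Nid1 to Nid2 was 5.77, 7.59 and 10.9 with DMSO and 3.75, 3.50 and 2.39 with TSA, with no overlap, and that of Lama5 to Lama4 was 0.866, 0.869 and 0.738 with DMSO and 1.2, 1.3 and 1.57 with TSA. Both gave p = 0.1 in the two-sided exact permutation test, the smallest it can give with 3 against 3, and 0.2 after adjustment. The ratio of Lamb1 to Lamb2 overlapped between treatments (exact permutation p = 0.3), as did that of Lama2 to Lama4 (p = 1). In the rat cultures Lama2 gave 34.0% to 57.0% of the summed alpha chain FPKM, and in the mouse libraries 5.26% to 15.4%. The tables of the 2 species were normalized separately and differ in age, culture and annotation, so no test was made between them.

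Accessibility at the starts of the 10 mouse genes was read from lists of ATAC-seq peaks, as the presence of a peak with its midpoint within 2.5 kb of an annotated transcript start. The shortest list held 13149 peaks (E18.5 replicate 1) and the longest 95257 (P3 replicate 1), so the chance of a peak differed between libraries. Peaks in both libraries of an age were found for 5 of the 10 genes in E18.5 cells, 4 in P1, 8 in P3 and 9 in P7, beside 56.5%, 41.1%, 87.2% and 82.9% of all genes tested. The peaks of the 2 libraries need not share a site, and for Lama4 at P1 and Hspg2 at P7 they lay in separate regions. With the 13149 peaks of highest score from each list, the counts were 5, 4, 2 and 5, so the higher counts at P3 and P7 went with the longer lists.

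Lamc1, Nid2 and Agrn had a peak in all 8 libraries, as did 36.4% of all genes, and Nid2 and Agrn kept theirs in all 8 lists of equal length. The Nid2 peak (chr14:19750748-19751757 over all libraries) spanned the start and reached 5.84 to 10.3 times the background at its summit. That of Agrn (chr4:156197677-156198289 over all libraries) lay just upstream of the start, with 4.61 to 8.59 times. Only in P7 replicate 2 did it overlap the far end of the promoter printed above, and in the other libraries it began beyond that promoter. The Lamc1 region (chr1:153331915-153334117) spanned the start, with 2.68 to 7.42 times. RNA of these 3 genes did not pass the test between E18.5 and P7.

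The Nid1 region (chr13:13437339-13439401 merged over libraries, which contains the promoter printed above) had a peak in 6 of 8 libraries. The second replicates of E18.5 and P1 had none, and the enrichment was 2.40 to 5.58 times. The peaks of E18.5 replicate 1 (chr13:13438325-13438746) and P1 replicate 1 (chr13:13438587-13438698) lay downstream of the start and outside that promoter. Only the P3 and P7 libraries had a peak over the start of the major transcript. The fold enrichment of the highest Nid1 peak was 4.8 in E18.5 replicate 1 and 4.5 in P7 replicate 1, both downstream of the start. In P7 replicate 2 it was 4.8, at a peak over the start, so these values are not all of the same position. With the lists as deposited Nid1 was neither gained nor lost between ages. With the upper 0.5 of each list by score it was gained at P3 and at P7 against both E18.5 and P1, and with lists of equal length at P7 against P1 and P3. Without replicate 1 of E18.5 or of P1 it was gained at P3 and P7 against that age.

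Against E18.5, Lama2 was the only member with a peak gained, held in both later and neither E18.5 library, at P3 (15.6% of all genes) and at P7 (12.1%). The peak covered the starts of the major transcript and of most others (chr10:27616594-27617633), with an enrichment of 9.18 and 6.37 times in the P3 libraries and 5.08 and 4.57 times in the P7 libraries. With lists of equal length it remained in P3 replicate 1 alone, so neither gain was counted. Lama2 RNA at P3 was below that at E18.5, and at P7 the ages overlapped.

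Against E18.5, Lamb1 was the only member with a peak lost, at P1 (3.8% of all genes) and at P7 (0.0286%). The peak was the intronic one whose shared bases are printed above (chr12:31275390-31275710), 10257 bp downstream of the start of the major Lamb1 transcript and at -1106 bp from that of a minor transcript that carries 0.05% of the gene's FPKM. It was present in both E18.5 libraries and P3 replicate 1, with an enrichment of 3.35 to 4.71 times, and ranked 12321 of 13149 and 11063 of 14910 at E18.5, near the bottom of both lists. With lists of equal length Lamb1 was lost at P1 (11.5% of all genes), P3 (9.04%) and P7 (3.26%), so the small share at P7 went with the longer lists. With the lists as deposited, counting only peaks within 1 kb of a start, or only the start of the major transcript, removed the loss. At the major Lamb1 start, the nearest peak was one 925 bp downstream in P3 replicate 1.

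For the other genes, part of the count rested on neighbouring features. A Lamb2 peak was present in 7 of 8 libraries, but the region in question (chr9:108490426-108491271) lies at the 3' end of Lamb2, with its midpoint 3 bp from the start of Usp19. The region at the Lamb2 start itself (chr9:108479720-108480370) had a peak in 5 libraries: E18.5 replicate 2 and all 4 of P3 and P7. Lama5 had peaks in 5 libraries, at its first exon (chr2:180225672-180225991) and upstream with its midpoint at -2459 bp (chr2:180227679-180228958). Lama4 had them in 6, mostly at its first exon (chr10:38965395-38966186), and Hspg2 in 6, in 3 separate regions.

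**Figure D5:**
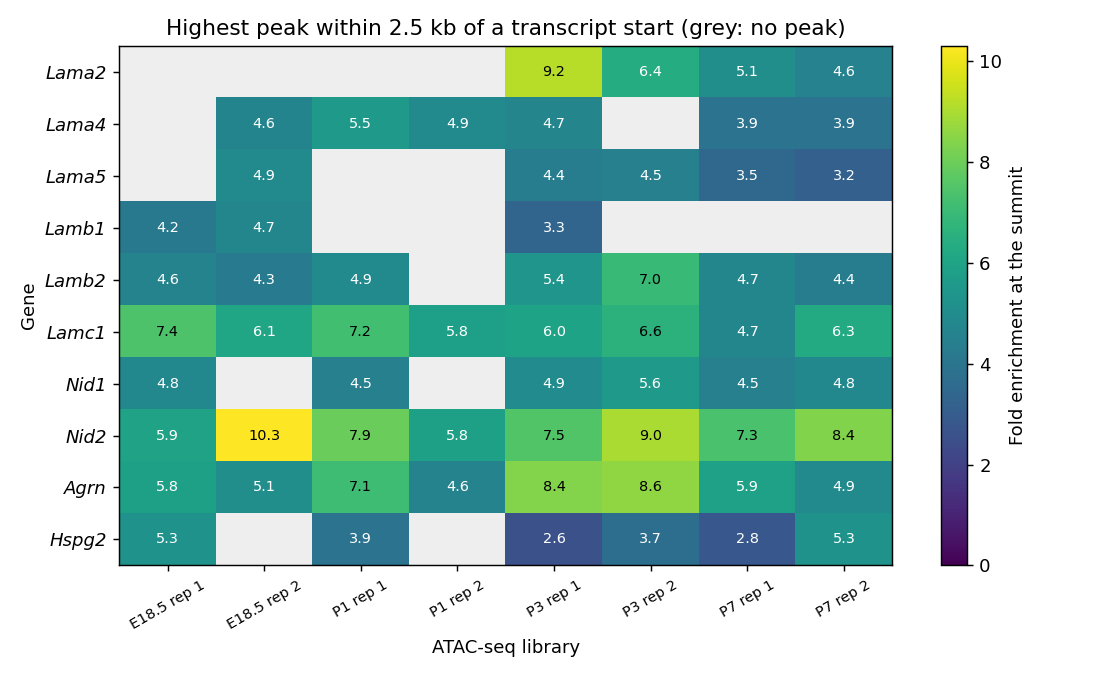
Fold enrichment at the summit of the highest ATAC-seq peak within 2.5 kb of a transcript start of each gene (rows) in each mouse library (columns). Grey cells hold no peak; Lamc1, Nid2 and Agrn have one in all 8 libraries, Lama2 only in those of P3 and P7, and Lamb1 in both of E18.5 and 1 of P3.

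Other parts of the basement membrane and of its link to the cell were read from lists of related genes, against the same background of 15.4% called higher and 12.3% called lower at P7. Of 8 basement membrane collagen genes, 6 could be tested and 3 were called higher. Col4a1 and Col4a2 encode the chains of the most widespread type IV collagen. Col4a1 went from 234 and 137 FPKM at E18.5 to 486 and 521 at P7, and Col4a2 from 179.8 and 109 to 348 and 367. Their log2 fold changes were 1.48 (SE 0.24, adjusted p = 0.0012) and 1.35 (SE 0.23, adjusted p = 0.00155), and that of Col15a1 was 1.03 (SE 0.26, adjusted p = 0.0112). Of 10 other basement membrane glycoproteins, 3 of 9 tested were called higher: Fbln2 (fibulin-2) by 3.21, Sparc by 1.85 and Ntn4 (netrin-4) by 1.35 on the log2 scale. Fbln2 went from 39.1 and 39.2 FPKM to 336 and 408.

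Other laminin chains were also measured. Lama1 was under 0.1 FPKM in all 8 mouse libraries. Lamb3 fell by 2.07 on the log2 scale, from 3.53 and 4.33 FPKM at E18.5 to 0.201 and 0.149 at P7. Of 9 laminin and agrin receptors 7 were tested, and 1 was called lower, Bcam, a receptor for the alpha 5 chain (-2.76, SE 0.26, adjusted p = 8.2e-05, from 252 and 360.2 FPKM to 47.4 and 40.1). Musk was under 0.1 FPKM throughout.

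In the dystrophin complex, which ties laminin through dystroglycan to the actin skeleton, 4 of 8 genes were called lower and none higher. Among the 4, Sgca (alpha-sarcoglycan) dropped by 2.58 on the log2 scale, and Dtna (dystrobrevin), chosen after its value was seen, by 1.55. The 10 cardiomyocyte markers, of which 10 were called lower in this comparison, had a median log2 fold change of -4.01. Of 9 genes that glycosylate dystroglycan, 2 were called higher and none lower. Pomk, a kinase that primes the sugar chain that binds laminin, was among them, with a log2 fold change of 1.39.

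With TSA, 1 gene of these 6 lists was called, the collagen gene Col4a6. It measured 4.18, 4.84 and 5.01 FPKM with DMSO and 13.4, 14.5 and 13.3 with TSA, with no overlap, a log2 fold change of 1.38 (SE 0.11, adjusted p = 0.00478). Its neighbours in the collagen list moved little, and the median log2 fold change of the 8 tested was 0.015. In mouse the log2 fold change of Col4a6 at P7 was 0.10 (adjusted p = 0.620). Lamb3 (1.05, adjusted p = 0.0578) passed the fold limit with TSA but not the adjusted p.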

How the data were processed

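The members and the gene lists were chosen with earlier results of these data known. The authors aligned RNA-seq reads with HISAT2 (2.1.0, per the labels) and ran StringTie (1.3.5 per the labels) on mm10 with GENCODE vM21 or on rn6 with Ensembl annotation. The deposited files give FPKM and TPM per transcript, normalized by the authors' StringTie run, and the authors' unnormalized coverage. ATAC-seq peaks were called by the authors with MACS2, library by library; the deposited lists hold a score, the fold enrichment at the summit as a ratio to background, and −log10 p and q. The 6 HiChIP libraries were not analysed here.

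FPKM was summed per gene. Aligned reads, worked out from coverage and FPKM, were 29.3 to 37.5 M per mouse and 28.2 to 38.5 M per rat library. Genes with FPKM of at least 1 in 2 mouse or 3 rat libraries were compared as log2(FPKM + 1) with limma 3.58.1 (R 4.3.3; lmFit, eBayes with a trend, two-sided, Benjamini-Hochberg over all genes tested), all mouse ages in 1 fit. Such fold changes understate those of low genes. In simulated data, 83% of 100 genes changed by 1.5 on the log2 scale were called for P7 against E18.5, and 77% for the rat treatments. The changed genes were drawn from the more abundant genes only, and mouse Lama2 lay below that range. Ratios were compared by exact permutation (scipy 1.17.1). The named genes are all members, up to 3 called genes per list with the largest change and no overlap, and the gene most alike each member. Some genes that this rule names are not reported here. Same-numbered rat libraries deviated together (correlations 0.224, 0.194 and 0.346), so pairing by replicate number was tried, although no label gives a pairing. The rat p-values in the Results, those of the ratios included, do not use it. Adding the pair as a block changed no member's call; over all genes 80 in place of 43 were called lower. Alternatives were another pseudocount, filter, unit, scaling or model, a replicate block, other peak rules and each library left out.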

Additional observations from a re-analysis of the deposited data

How the results depend on the processing

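Of 220 alternative counts of members called, 194 stayed within 1.5 times the value given. These include counts of 0 that stayed 0, and fits without a library of an age outside the comparison, so they say little on stability. With TPM, 1 gene was called higher at P1 and 2 at P7 against E18.5. With a pseudocount of 0.1, size factors or limma-voom, 1 (Lama2) was called lower at P1 and 1 at P3. With size factors 1 (Lamb2) was lower at P7. Without a filter 0 were higher from P1 to P7, and without rat replicate 3 of both treatments, chosen after seeing the data, 0 were higher with TSA. Leaving out 1 library gave 0 to 1 called higher and 0 to 1 lower at P1, 0 to 1 lower at P3, 1 to 2 higher at P7, 0 to 2 higher and 0 to 1 lower from P1 to P7, and 0 to 2 higher with TSA. The cause of these shifts was not tested. The difference in the log2 ratio of Lama5 to Lama4 between P7 and E18.5 (-0.10) ranged from -0.38 to 0.18, and turned to 0.17 without E18.5 replicate 2 and to 0.18 without P7 replicate 2. That of Lama2 to Lama4 with TSA (0.06) ranged from -0.42 to 0.315, and turned to -0.42 without DMSO replicate 3 and to -0.06 without TSA replicate 1.

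Of 64 alternative peak counts, 40 stayed. The members with a peak in both libraries at E18.5 were 2 with the upper 0.5 of each list and 3 within 1 kb or from the major start; at P3 they were 2 with equal lists and 5 with the upper 0.5, and at P7 5 and 5. Gains were 0 with equal lists and 2 with the upper 0.5, at P3 and at P7. Losses at P1 and P7 were 0 with the upper 0.5, within 1 kb and from the major start. Leaving out 1 library gave 4 to 7 members with a peak at P1, 1 to 3 gained at P3 and at P7, and 1 to 2 lost at P1.

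Same-numbered mouse libraries had correlations of -0.096 to 0.171, and no label pairs them. With the replicate block the members called were 0 higher at P1, 1 at P3 and 1 at P7, as without it. In rat the replicate block left 1 called with TSA.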

Other observations

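For each of the 10 genes, the tested mouse gene whose log2(FPKM + 1) followed it most closely was found by Pearson's r over the 8 mouse libraries, which all genes share; the values are a description. Nid1 was followed by Lzts2 (r = 0.994), and 390 genes exceeded 0.95 with it. Lamb1 was followed by Rhog (r = 0.990), with 154 genes over 0.95, and Lama5 by Mapre3 (r = 0.990), with 25. Hspg2 went with Tanc1 (r = 0.988), Lamb2 with Sptan1 (r = 0.984), Nid2 with Shld1 (r = 0.971), Lama4 with Cped1 (r = 0.969) and Lamc1 with Gm45837 (r = 0.968). Agrn with Esam (r = 0.953), an endothelial adhesion molecule, and Lama2 with Pecr (r = 0.952) had 1 gene each over 0.95.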
